A study of Mus musculus with 9 samples.

Results

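The 7 genes described here encode the myosins of the heart muscle cell and an RNA transcribed beside them: Myh6, Myh7, Myh7b, Myl2, Myl3, Myl7 and Mhrt, of 32285 genes in the deposited tables. They were chosen by their measured levels in cardiomyocyte nuclei of sham and injured hearts, with the adult and fetal myosins, the low Myh7b after injury and the antisense RNA Mhrt in view. Differences between injured and sham hearts are therefore given as a description, without a test. Tests of drug-treated against untreated injured hearts use the same untreated injured libraries and are not independent of this choice.

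Nuclear RNA was sequenced from the hearts of male wild-type mice aged 9 to 10 weeks. The libraries formed 3 groups of 3. NS-Sham mice had a thoracotomy alone and received normal saline (NS). NS-I/R mice received saline and had ischemia-reperfusion (I/R), with the left anterior descending coronary artery closed for 45 min and reopened for 24 h. Enpa-I/R mice had the same occlusion and received enpatoran, a small-molecule antagonist of the RNA sensors TLR7 and TLR8, at 5 mg/kg in each of 2 intraperitoneal injections. The first injection came 1 h before ischemia, and the labels disagree on the second, given 2 h later in one text and directly after ischemia in the other. No sham mice received enpatoran, so a drug effect apart from injury cannot be told apart from one on the response to injury. The tissue was whole heart with no region named, so injured and remote muscle were mixed. The labels number the replicates and do not say that each is a separate mouse, and p-values then measure the spread between these libraries.

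Myosin is the motor of the sarcomere, made of 2 heavy chains, each with an essential and a regulatory light chain. In the adult mouse ventricle the heavy chain is mainly the fast alpha chain from Myh6. The slower beta chain, from Myh7, dominates before birth and can return under load or hypertrophy, and this exchange is often used as a marker of a fetal gene programme. Myh7b is a further striated muscle heavy chain gene whose transcript also carries a microRNA. Myl2 and Myl3 encode the ventricular regulatory and essential light chains, and Myl7 the atrial regulatory light chain. Mhrt (myosin heavy chain associated RNA transcript) is a long noncoding RNA known to bind the chromatin remodeller Brg1, the product of Smarca4.

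In GRCm38, Myh6 (ENSMUSG00000040752, chr14:54941921-54966927, minus strand) and Myh7 (ENSMUSG00000053093, chr14:54970684-54994626, minus strand) lie in tandem on chromosome 14. Mhrt (ENSMUSG00000097652, chr14:54968678-54974349, plus strand) begins between them, 1751 bases from the Myh6 start. It runs into Myh7 on the other strand and overlaps it by 3666 bases, with an overlap of 0 bases with Myh6. The files do not state whether counting used strand or introns, so how reads from the overlap of Mhrt and Myh7 were assigned could not be checked. Myh7b (ENSMUSG00000074652) is at chr2:155611212-155634307, plus strand. The light chain genes are on other chromosomes: Myl2 (ENSMUSG00000013936) at chr5:122100951-122113472, plus strand, Myl3 (ENSMUSG00000059741) at chr9:110741861-110769798, plus strand, and Myl7 (ENSMUSG00000020469) at chr11:5896637-5898782, minus strand.

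Each of the 3 heavy chain genes holds a microRNA gene in an intron, on its own strand: Mir208a in Myh6, Mir208b in Myh7 and Mir499 in Myh7b. The mature sequences are shown because they tie the 3 host genes together. They come from RefSeq (GRCm38.p6), with the seed, bases 2 to 8, in capitals:
mmu-miR-208a-3p: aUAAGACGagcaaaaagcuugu
mmu-miR-208b-3p: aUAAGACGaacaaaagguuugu
mmu-miR-499-5p: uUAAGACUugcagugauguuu
The first and second share the whole seed and differ outside it at G10A, A16G and C18U, counted from the 5′ end, with the miR-208a-3p base first. Against miR-208a-3p, miR-499-5p shares the first 6 seed bases and differs at the last, G8U. The libraries measured the host transcripts, not the mature microRNAs.

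Sequence before the annotated RefSeq starts is shown for the heavy chain genes and Mhrt, whose levels are compared below. Searches used the 250 bases before each start. For Myh6 and Myh7b the printed stretch stops where an annotated untranslated region begins. The RefSeq starts used lie 320 bases inside the gene positions given above for Myh6, 0 for Myh7, 31 for Myh7b and 109 for Mhrt. The printed Myh6 stretch thus lies within the Myh6 gene as placed above. The last 109 bases of the Mhrt stretch, with its E-box, lie within Mhrt. Capitals mark matches to the MCAT motif bound by TEAD factors (CATTCC or its complement GGAATG) and to the E-box (CANNTG), on either strand, and no match to one overlapped a match to the other:
Myh6, chr14:54966642-54966857, minus strand: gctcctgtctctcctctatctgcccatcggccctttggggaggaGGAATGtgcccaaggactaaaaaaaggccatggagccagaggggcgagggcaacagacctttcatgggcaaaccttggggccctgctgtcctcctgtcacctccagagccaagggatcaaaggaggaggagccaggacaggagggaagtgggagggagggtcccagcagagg
Myh7, chr14:54994627-54994876, minus strand: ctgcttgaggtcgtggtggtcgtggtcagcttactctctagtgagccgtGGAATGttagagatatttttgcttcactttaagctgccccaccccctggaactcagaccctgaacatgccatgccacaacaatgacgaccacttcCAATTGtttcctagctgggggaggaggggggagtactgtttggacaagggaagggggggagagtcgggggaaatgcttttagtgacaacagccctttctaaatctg
Myh7b, chr2:155610993-155611211, plus strand: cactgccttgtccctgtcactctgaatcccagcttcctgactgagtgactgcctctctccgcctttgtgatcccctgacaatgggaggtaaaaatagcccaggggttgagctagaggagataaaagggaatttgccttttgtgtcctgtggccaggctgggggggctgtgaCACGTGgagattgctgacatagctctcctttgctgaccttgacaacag
Mhrt, chr14:54968537-54968786, plus strand: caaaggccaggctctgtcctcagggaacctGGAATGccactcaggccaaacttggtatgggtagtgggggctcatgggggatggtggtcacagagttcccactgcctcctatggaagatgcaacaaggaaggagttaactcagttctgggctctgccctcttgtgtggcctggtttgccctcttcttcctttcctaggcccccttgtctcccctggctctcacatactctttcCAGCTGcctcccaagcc
MCAT matches stood once each in Myh6, Myh7 and Mhrt, at -206, -201 and -220 from the RefSeq start used, and 0 times in Myh7b. Of 32851 RefSeq promoter windows of that length, 12.6% held MCAT. An E-box matched once in each of the 4 windows (66.2% of all windows), in Myh6 at -13, beyond the printed stretch.

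The 9 libraries held 56766 barcodes and 19.7 to 39.0 M UMIs (unique molecular identifiers, each standing for a counted RNA molecule). After filtering, 41979 nuclei formed 26 clusters, of which 5 carried cardiomyocyte markers and held 9412 nuclei, 617 to 1451 per library. These cardiomyocyte-like nuclei had a median of 6459.5 to 10709 UMIs and summed to 8.05 to 16.8 M UMIs per library. All 10 cardiomyocyte markers were detected in the class in every library, from Ryr2 to Pln. Pairs of libraries shared 1 to 11 barcodes among kept nuclei. All names of nuclei were rebuilt from the counts and may differ from those of the study.

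The nuclear level of the adult heavy chain gene Myh6 was lower after I/R, with and without enpatoran. Levels are CPM: UMIs summed over cardiomyocyte-like nuclei and scaled to a common library total with TMM factors. Myh6 stood at 8868, 9878 and 10081 CPM in NS-Sham replicates 1 to 3, at 5044, 4549 and 5044 in NS-I/R, and at 3294, 5512 and 3923 in Enpa-I/R. All 6 I/R libraries lay below every sham library, while the I/R groups overlapped. The log2 fold change of NS-I/R minus NS-Sham was -0.98 (SE 0.19). Between Enpa-I/R and NS-I/R it was -0.20 (SE 0.19, edgeR adjusted p 0.468), which did not pass 0.05.

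The fetal heavy chain gene Myh7 was also lower after I/R, at 24 h. It stood at 284, 268 and 276 CPM in NS-Sham libraries, 143, 94.4 and 170 in NS-I/R libraries, and 135, 163 and 179 in Enpa-I/R. Sham libraries differed little, and each I/R library was below all of them. The log2 fold change was -1.02 (SE 0.20) for NS-I/R minus NS-Sham and 0.23 (SE 0.20, edgeR adjusted p 0.426) for Enpa-I/R minus NS-I/R. As a share of Myh6 plus Myh7 UMIs, Myh7 was 3.101, 2.65 and 2.67% in NS-Sham libraries, 2.76, 2.03 and 3.26% in NS-I/R libraries and 3.93, 2.87 and 4.36% in Enpa-I/R libraries. The sham and NS-I/R shares overlapped. Summed over all cardiomyocyte-like nuclei, both heavy chain genes were thus lower by a like factor. In these sums the balance between them was not seen to move towards Myh7. The Enpa-I/R share was above NS-I/R by 1.04 percentage points (exact two-sided permutation p 0.2, where 3 against 3 cannot go below 0.1). The like factor did not hold within cluster 2, a group of nuclei described below. There mean Myh7 was 564 CPM (without TMM) for sham libraries and 212 after saline I/R, with Myh6 at 8985 and 8788. The smallest sham library had 35 nuclei there. In cluster 0, also described below, the difference in Myh7 was smaller, with means of 264 CPM in sham and 199 after saline I/R. Mean Myh6 there was 11412 and 10489 CPM, and the groups overlapped. Cluster 3, also described below, held 3 sham nuclei, too few to compare with I/R.

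Myh7b had the lowest level relative to sham of the 7 genes. It stood at 446, 513 and 515 CPM in NS-Sham libraries, 23.4, 9.86 and 38.7 in NS-I/R libraries, and 86.1, 70.3 and 121 in Enpa-I/R. The 3 groups did not overlap, with Enpa-I/R between the others. The log2 fold change of NS-I/R minus NS-Sham was -4.37 (SE 0.43). Ranked by that value among 7709 genes averaging at least 10 CPM, Myh7b was number 3 from the lowest, while Myh6 was number 869 and Myh7 number 794.

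**Figure D1:**
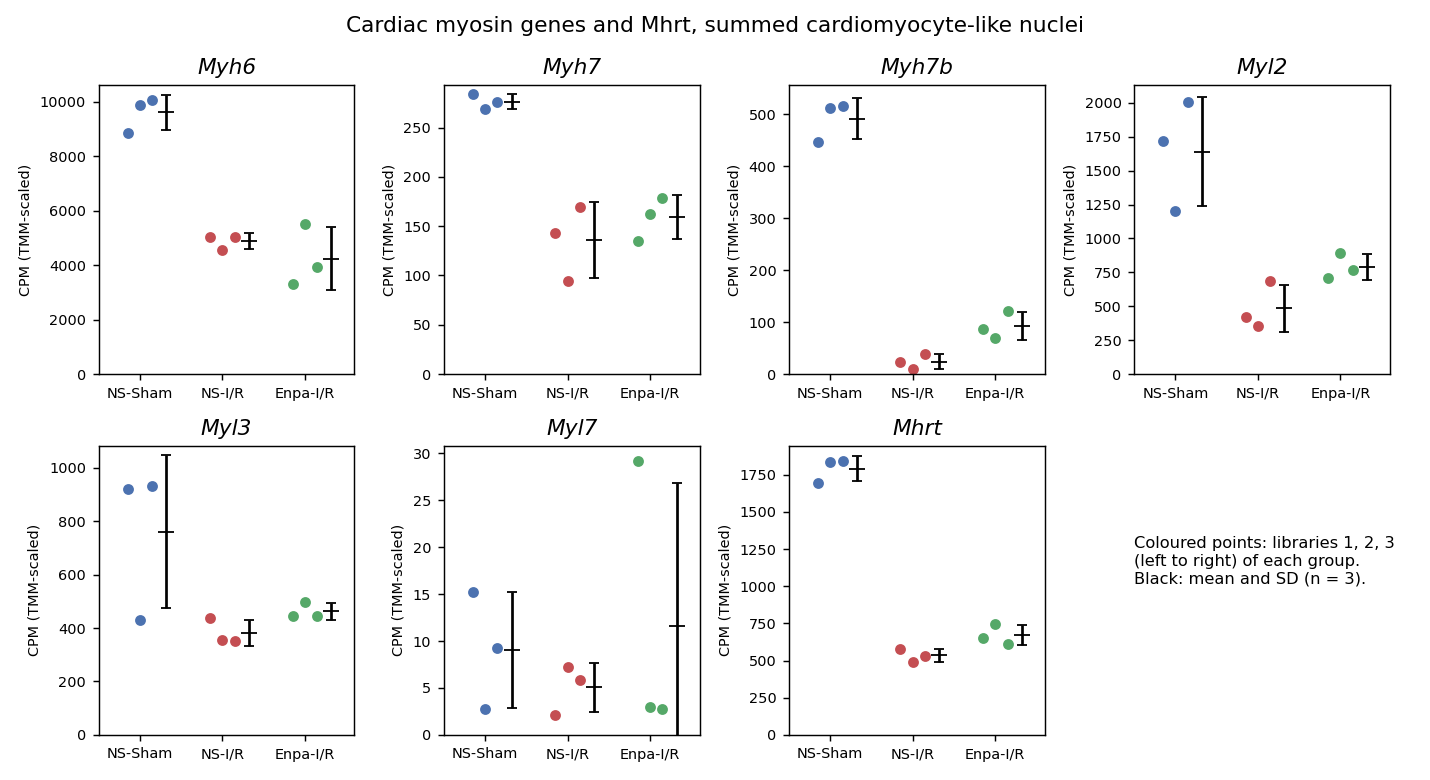
TMM-scaled CPM (vertical axis, each panel from 0) of the 7 genes in summed cardiomyocyte-like nuclei. Coloured points are libraries 1 to 3 of each group and black marks the mean with its SD (n = 3); the error bar of Myl7 in Enpa-I/R runs below the axis. Myh6, Myh7, Myh7b, Myl2 and Mhrt have every NS-I/R point below every NS-Sham point.

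Myh7b was higher in Enpa-I/R than in NS-I/R, by 1.96 on the log2 scale (SE 0.39, edgeR adjusted p 0.0165). The gene was chosen with its low NS-I/R level in view. A higher value against those libraries was thus favoured, and the p does not allow for that choice. Myh7b was the only one of the 7 genes called (adjusted p under 0.05). Of all 14060 genes tested, 17.5% were called in that comparison and 7.23% were called higher. The call was near the threshold: adjusted p was 0.0625 without NS-I/R replicate 1, 0.0562 without Enpa-I/R replicate 1, 0.0609 without Enpa-I/R replicate 3 and 0.0561 with the 6 I/R libraries alone. The log2 fold change was between 1.58 and 2.51 with each library left out. Even so, Myh7b in Enpa-I/R stayed far below sham, at a mean of 92.6 ± 26.2 CPM (SD, n = 3) against 491 ± 39.1.

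Nuclei with a Myh7b UMI were fewer as well. After thinning each nucleus to 1000 UMIs, 30.4, 38.5 and 35.6% of cardiomyocyte-like nuclei had one in NS-Sham libraries, 3.28, 1.25 and 4.37% in NS-I/R libraries and 7.23, 6.53 and 10.3% in Enpa-I/R. Enpa-I/R exceeded NS-I/R by 5.04 percentage points, without overlap (exact two-sided permutation p 0.1, the smallest possible here). Thinning left out 53, 18 and 30 shallower nuclei in the 3 groups, and without it the mean shares were 78.6, 12.8 and 32.7%. Endothelial-like nuclei, which should lack the gene, had thinned shares of 2.61, 0.256 and 0.553%, with median depths of 1436 to 2032 UMIs against 6459.5 to 10709 in cardiomyocyte-like nuclei. The cardiomyocyte-like shares were above this background in every group.

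The antisense RNA Mhrt was lower after I/R than in sham, with a log2 difference larger than that of its neighbours Myh6 and Myh7. Libraries stood at 1693, 1837 and 1843 CPM in NS-Sham libraries, 578, 492 and 534 in NS-I/R libraries, and 649, 744 and 613 in Enpa-I/R. The groups did not overlap, and Enpa-I/R lay slightly above NS-I/R. The log2 fold change was -1.74 (SE 0.13) for NS-I/R minus NS-Sham. Enpa-I/R stood 0.32 above NS-I/R in log2 (SE 0.13, edgeR adjusted p 0.0962), which did not pass 0.05. On a scale of UMIs per nucleus per kb of annotated gene length, Mhrt in NS-Sham was at 3.12 ± 0.493, Myh6 at 3.80 ± 0.604 and Myh7 at 0.114 ± 0.0148 (SD, n = 3). Without division by length, Mhrt was at 17.7 and Myh6 at 94.9 UMIs per nucleus, and whether length scaling fits a 3' kit depends on intron counting, which is not stated. In NS-I/R these levels were 1.04 ± 0.105 for Mhrt, 2.14 ± 0.128 for Myh6 and 0.0615 ± 0.0132 for Myh7. How reads in the overlap of Mhrt and Myh7 were assigned could not be checked here.

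Of the light chains, Myl2 was lower after I/R and Myl3 and Myl7 were less separate. Myl2 stood at 1715, 1203 and 2002 CPM in NS-Sham libraries, 419, 358 and 683 in NS-I/R libraries, and 712, 895 and 765 in Enpa-I/R, with no overlap between groups. Its log2 fold change was -1.75 (SE 0.26) for NS-I/R minus NS-Sham and 0.70 (SE 0.25, edgeR adjusted p 0.0785) for Enpa-I/R minus NS-I/R. The second passed 0.05 without NS-I/R replicate 3 (adjusted p 0.00207), without the low-count filter (0.0348) and with DESeq2 (0.0379). Myl3 stood at 922, 431 and 932 CPM in NS-Sham libraries, 436, 356 and 351 in NS-I/R libraries and 447, 499.5 and 444 in Enpa-I/R. Sham replicate 2 lay within the I/R range, and the log2 fold change was -0.998 (SE 0.25) and then 0.28 (SE 0.25, edgeR adjusted p 0.440). The atrial light chain gene Myl7 was low throughout, at 15.2, 2.79 and 9.26 CPM in NS-Sham libraries, 2.15, 7.23 and 5.86 in NS-I/R libraries and 29.2, 2.95 and 2.80 in Enpa-I/R. Within Enpa-I/R, replicate 1 stood far above the other libraries: the log2 fold change over NS-I/R was 1.22 (edgeR adjusted p 0.344) with it and -0.83 (0.454) without it.

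Counted over the genes, 5 of 7 (Myh6, Myh7, Myh7b, Myl2 and Mhrt) had every NS-I/R library below every NS-Sham library, beside 25.9% of 14060 genes tested, while 0 of 7 had every NS-I/R library above, beside 26.6%. This comparison chose the genes. Between Enpa-I/R and NS-I/R, 4 of 7 (Myh7b, Myl2, Myl3 and Mhrt) had higher CPM without overlap, beside 16.9% of genes tested. Both comparisons share the NS-I/R libraries. For Mhrt and Myl3 the direction turned within cluster 2, described below (-0.40 and -0.19 in log2), and without cluster 3, the Xirp2-led cluster (-0.31 and -0.11).

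The genes differed in how much of their signal also appeared outside cardiomyocytes. Mean UMIs per endothelial-like nucleus, relative to cardiomyocyte-like nuclei of the same group, were 0.343 to 0.535% for Mhrt, 1.04 to 1.80% for Myh7b, 0.883 to 2.21% for Myh7 and 2.56 to 3.88% for Myh6. For the light chains they were 14.0 to 18.4% for Myl2, 17.3 to 18.9% for Myl3 and 13.7 to 21.0% for Myl7. These ratios were lower for the heavy chain genes and Mhrt than for the light chains. Myh6 was still read widely outside cardiomyocytes: after thinning to 1000 UMIs, 67.1, 42.5 and 46.1% of endothelial-like nuclei had a Myh6 UMI in the 3 groups, and smooth muscle-like nuclei of Enpa-I/R held 5.38 Myh6 UMIs on average against 47.0 in cardiomyocyte-like nuclei. The source of these UMIs was not tested. Levels were also taken as UMIs per nucleus less the endothelial-like level of the same library. The log2 fold change of NS-I/R minus NS-Sham was then -4.26 for Myh7b, -0.82 for Myh6 and -1.59 for Mhrt. After subtraction Myl2 was at 14.1, 11.8 and 14.8 UMIs per nucleus in NS-Sham libraries and 3.63, 3.17 and 6.04 in NS-I/R. Myl3 was at 7.29, 3.88 and 6.53 against 4.11, 3.42 and 2.89, with overlap. Myl7 was at 0.125, 0.0247 and 0.0545 against 0.0224, 0.0750 and 0.0473, also with overlap. Before subtraction, NS-Sham and NS-I/R held means of 4.86 and 0.255 Myh7b, 94.9 and 53.5 Myh6 and 17.7 and 5.87 Mhrt UMIs per nucleus. The change of scale from CPM, as well as the subtraction, therefore enters these values.

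**Figure D2:**
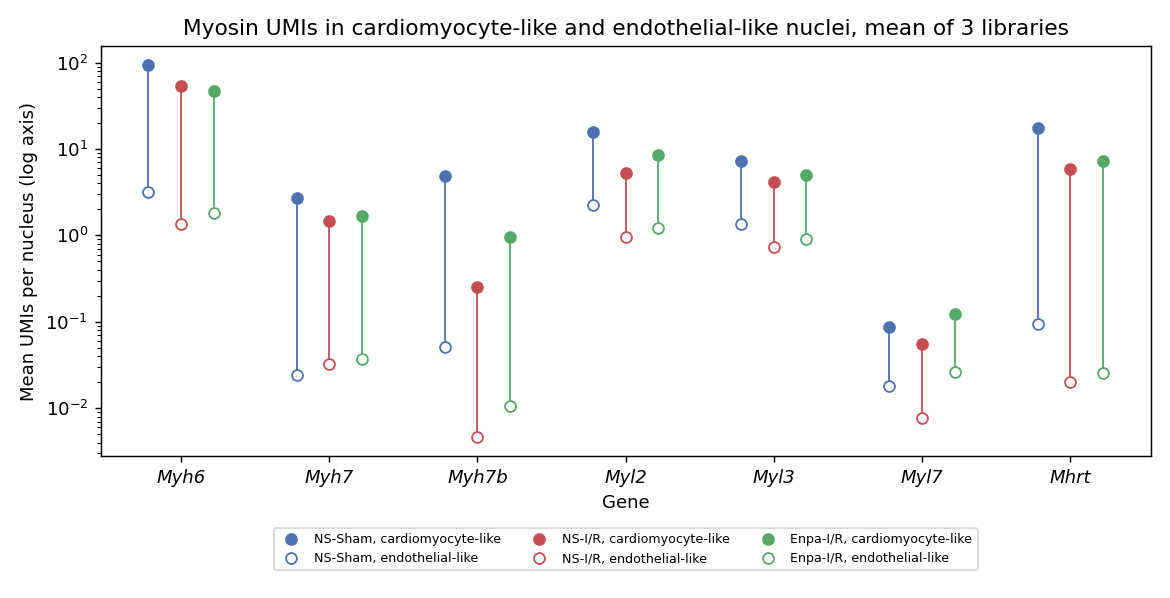
Mean UMIs per nucleus (log axis, mean of 3 libraries) of each gene in cardiomyocyte-like (filled) and endothelial-like (open) nuclei, by group. The gap between filled and open points is widest for Mhrt and narrow for Myl2, Myl3 and Myl7, where the endothelial-like level is 13.7 to 21.0% of the cardiomyocyte-like level.

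Other cell types and RNA quality moved between groups as follows. Of 8 neutrophil markers, 2 to 4 were at 0 in sham libraries and 0 in each I/R library. Their summed level in cardiomyocyte-like nuclei was 0.713 to 2.69 CPM in NS-Sham libraries, 28.7 to 80.8 in NS-I/R libraries and 18.4 to 33.0 in Enpa-I/R. The 7 adipocyte markers summed to 148 to 168, 231 to 457 and 170 to 241 CPM, and 0 to 3, 0 to 4 and 2 to 4 of them were at 0. Mitochondrial UMIs were 0.421 to 1.03, 0.435 to 0.524 and 0.543 to 0.580% of all UMIs. Pericyte markers (8) summed to 334 to 342 CPM over NS-Sham libraries, 81.9 to 145 over NS-I/R and 148 to 216 over Enpa-I/R, with 0 of them at 0. Schwann markers (7) summed to 24.9 to 27.6, 7.70 to 10.9 and 15.7 to 21.2 CPM, with at most 2 at 0, and T and NK markers (8) to 4.93 to 5.81, 1.58 to 2.82 and 3.11 to 3.72 CPM, with 2 to 4 at 0. These 3 lists stood in the same order of groups as Myh7b, without overlap. So did the sums of the atrial list (783 to 871, 194 to 372 and 426 to 554 CPM) and of the ventricular list (197 to 217, 50.7 to 75.3 and 79.3 to 97.1 CPM). In sham each of these sums was mostly 1 gene. Kcnj3 was at 674 to 856, 135 to 187 and 279 to 350 TMM-scaled CPM. Kcnip2 was at 154 to 167, 10.1 to 19.5 and 39.8 to 52.4. Nppa and Irx4 of these lists did not keep the order. Nppa was at 12.7 to 42.7, 49.7 to 166 and 79.0 to 202 CPM, and Irx4 overlapped between groups. Fibroblast markers (10) ran in another order, at 1436 to 1526, 916 to 1426 and 749 to 934 CPM, with at most 1 at 0. Smooth muscle markers (8) summed to 1923 to 2327, 1351 to 1544 and 2237 to 2384 CPM, with at most 1 at 0. Most of that sum was Myocd, at 1260 to 1564, 1014 to 1366 and 1353 to 1936 TMM-scaled CPM. Myocd was also among the leading genes of cardiomyocyte-like cluster 3, described below, so this sum cannot be read as smooth muscle RNA. The part of these lists and of mitochondrial UMIs in the myosin differences was not tested. Fewer cells of a type and less RNA per cell cannot be told apart in sums over a library. Summed levels of the 10 cardiomyocyte markers ran from 36593 to 41204 CPM over NS-Sham libraries, from 36745 to 41981 over NS-I/R libraries and from 48734 to 51645 over Enpa-I/R libraries, and the part of this in the drug comparison was not tested.

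The cardiomyocyte-like nuclei fell into clusters that differed between the groups, and the myosin levels differed with them. Clusters were formed without the 7 genes. Cluster 1 held 65.1 ± 10.95% of cardiomyocyte-like nuclei in NS-Sham libraries, 0.365 ± 0.558% in NS-I/R libraries and 4.07 ± 1.68% in Enpa-I/R (SD, n = 3). Cluster 2 held 5.18 ± 1.81, 33.8 ± 11.4 and 57.8 ± 2.18%. Cluster 3, led by the actin-binding protein gene Xirp2, held 0.093 ± 0.107, 52.8 ± 12.7 and 18.7 ± 1.13%. Cluster 0, of shallow nuclei, held 28.4 ± 9.94, 11.4 ± 1.77 and 17.1 ± 4.64%, and cluster 24, in which 7 atrial markers led, held 1.26, 1.78 and 2.41%.

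The Xirp2-led nuclei were poor in the heavy chains and Mhrt. In NS-I/R libraries Myh6 was at 2154, 1722 and 2298 CPM in cluster 3 against 9451, 9662 and 7249 in cluster 2 (CPM within a cluster, without TMM). Myh6 in cluster 2 of NS-I/R thus lay around the 8348, 9222 and 9386 CPM of cluster 2 in NS-Sham. For Mhrt the values in NS-I/R were 223, 166 and 151 CPM in cluster 3 and 1123, 1051 and 813 in cluster 2, with 1303 to 1623 in cluster 2 of NS-Sham. Within NS-I/R, Myh7b was lower in cluster 3 than in cluster 2 as well, at means of 6.58 and 43.9 CPM. Against sham, however, Myh7b did not follow Myh6: in cluster 2 it was 50.3, 20.3 and 61.0 CPM in NS-I/R against 582, 562 and 605 in NS-Sham. It was therefore low also in I/R nuclei that held Myh6 at the sham level. With cluster 3 left out, the log2 fold change of NS-I/R minus NS-Sham was -0.13 for Myh6, -0.39 for Myh7 and -0.83 for Mhrt, and -3.51 for Myh7b.

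**Figure D3:**
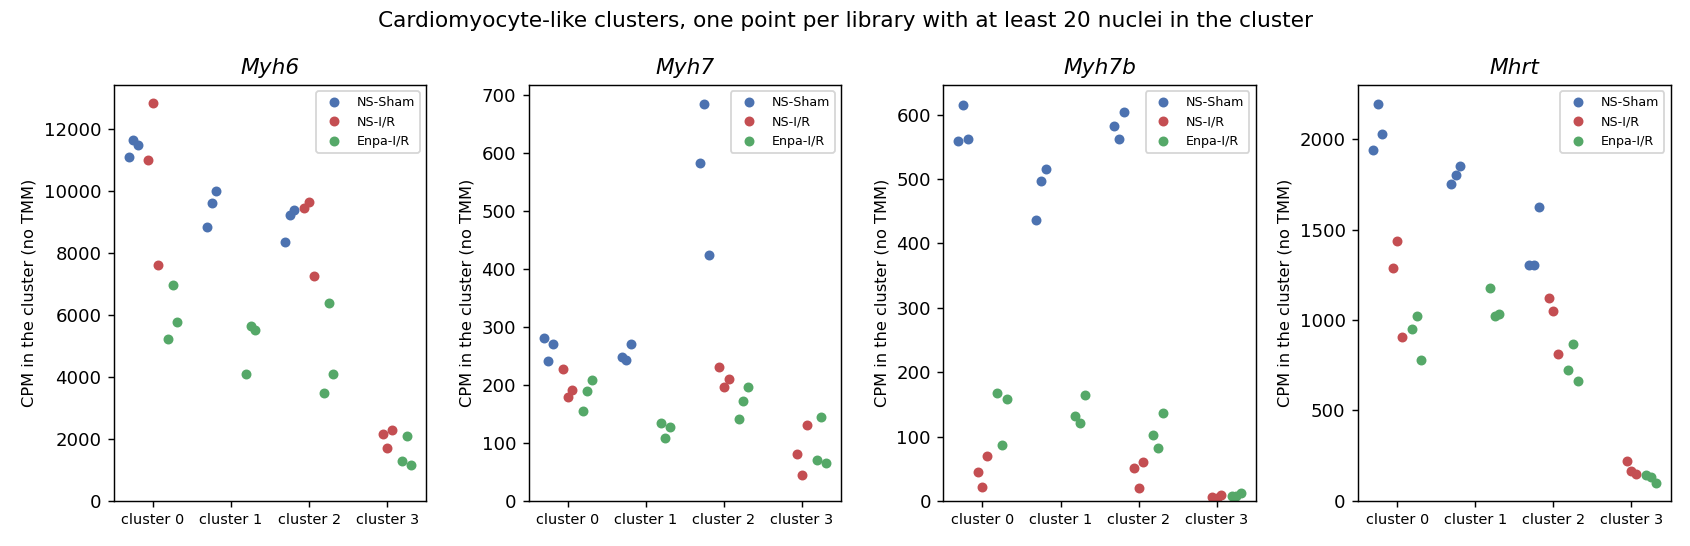
CPM of Myh6, Myh7, Myh7b and Mhrt (vertical axis) in cardiomyocyte-like clusters 0 to 3, one point per library with at least 20 nuclei there. In cluster 2 the Myh6 points of NS-I/R lie around those of NS-Sham, while the Myh7b points of NS-I/R, 20.3 to 61.0 CPM, lie far below the sham points of 562 to 605.

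Within sham, the fetal heavy chain gene was higher in cluster 2 than in cluster 1. Myh7 there was at 582, 685 and 424 CPM in the 3 sham libraries, from 64, 68 and 35 nuclei, against 248, 243 and 270 CPM in cluster 1. The 2 sham clusters did not overlap for Myh7. Cluster 2 of NS-I/R had 231, 196 and 210 CPM and cluster 2 of Enpa-I/R 142, 173 and 196.

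Enpatoran and saline I/R hearts were compared within clusters too. In cluster 2, Myh6 was at 9617, 9943 and 6880 TMM-scaled CPM in NS-I/R libraries and 3493, 6227 and 4318 in Enpa-I/R, without overlap. The log2 fold change was -0.91 (SE 0.26, edgeR adjusted p 0.135). Myh7b was at 51.2, 20.9 and 57.9 against 103, 81.0 and 144 (log2 fold change 1.33, SE 0.36, edgeR adjusted p 0.130). Neither passed 0.05, and edgeR called 0 of 11886 genes in cluster 2, with 2621 at an unadjusted p under 0.05 and 670 called by DESeq2. In cluster 3, Myh7b was at 6.42, 4.57 and 8.89 CPM in NS-I/R libraries and 8.24, 7.49 and 12.3 in Enpa-I/R (0.53 in log2, SE 0.35, edgeR adjusted p 0.364). There edgeR called 0 of 10912 genes, with 2966 at an unadjusted p under 0.05 and 931 called by DESeq2. For Mhrt the pooled value had the opposite sign to both clusters fitted: it was 0.32 higher in log2 in Enpa-I/R over all cardiomyocyte-like nuclei but -0.40 in cluster 2 (edgeR adjusted p 0.251) and -0.53 in cluster 3 (0.149), while cluster 3 held a smaller share of nuclei in Enpa-I/R. With cluster 3 left out, the Myh7b log2 fold change was 1.41 and adjusted p 0.0521.

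Per nucleus, more nuclei held little Myh6 after I/R. Of nuclei thinned to 1000 UMIs, 8.43, 6.13 and 6.18% held at most 2 Myh6 UMIs in NS-Sham. The share was 46.1, 52.7 and 36.7% in NS-I/R libraries and 47.4, 30.7 and 42.5% in Enpa-I/R. Medians were 9, 9 and 10 UMIs in sham, 3, 2 and 5 in NS-I/R libraries and 3, 5 and 3 in Enpa-I/R. The richest 10% of nuclei began at 17, 17 and 18 Myh6 UMIs in sham, at 15, 15 and 13 in NS-I/R and at 8, 12 and 10 in Enpa-I/R. Saline I/R hearts thus held nuclei rich in Myh6 next to nuclei nearly without it, and in Enpa-I/R the upper end was lower in each library than in each NS-I/R library.

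**Figure D4:**
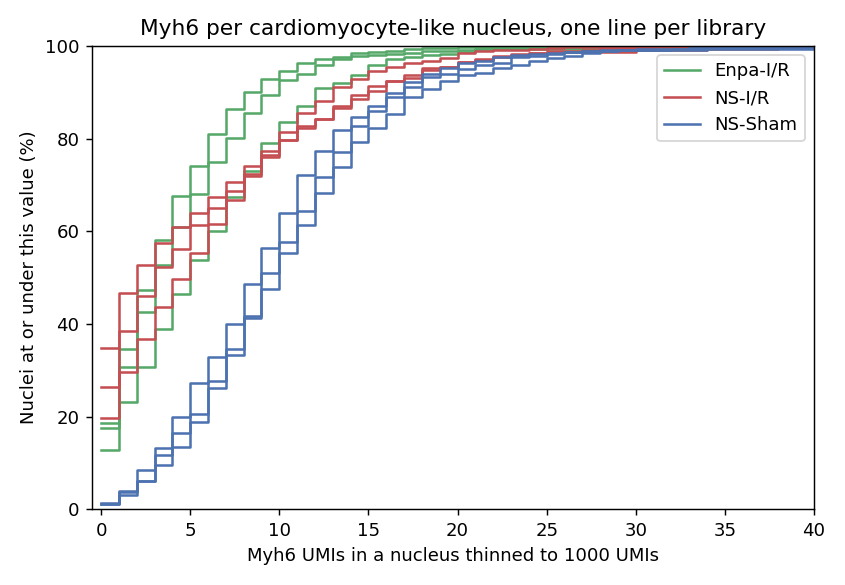
Cumulative share of cardiomyocyte-like nuclei (vertical axis, %) at or under a given number of Myh6 UMIs after thinning to 1000 UMIs per nucleus (horizontal axis), one line per library. The 6 I/R lines start far above the sham lines at the left, and at the right the NS-I/R lines come near those of NS-Sham.

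The genes followed Myh6 to different degrees within a library. Each library's nuclei were split into 3 groups of equal size by thinned Myh6. In NS-I/R the group lowest in Myh6 had 86.6 ± 9.99% of its nuclei in cluster 3 and the highest 18.3 ± 3.15% (SD, n = 3). Mhrt was higher in each group than in the one before, at 0.152, 0.498 and 1.30 UMIs per thinned nucleus, while Myh7 was at 0.0768, 0.134 and 0.304. Myh7b was at 0.00825, 0.0435 and 0.0564, against 0.460, 0.491 and 0.524 in NS-Sham. Even the nuclei richest in Myh6 after I/R held little Myh7b, and in sham Myh7b hardly varied with Myh6.

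Nuclei with Myh7 were not poor in Myh6. Thinned nuclei with a Myh7 UMI held on average 11.3, 11.8 and 13 Myh6 UMIs in NS-Sham against 9.00, 9.67 and 9.94 without one. In NS-I/R the means were 11.4, 10.2 and 8.71 against 5.12, 4.73 and 5.28, and in Enpa-I/R 4.54, 7.89 and 6.11 against 3.63, 5.62 and 4.10. The mean was higher with a Myh7 UMI in 9 of 9 libraries. The same held for Mhrt, for example 1.45 against 0.639 in NS-I/R replicate 1. Whether reads from the overlap of Mhrt and Myh7 add to this was not tested.

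Other sarcomere genes, from lists of known function, were tested in both comparisons. All are in cardiomyocyte-like nuclei, and 44.5% of 14060 genes were called in NS-I/R minus NS-Sham, 23.3% higher and 21.2% lower. In the thick filament and M-band list, 0 of 10 genes rose and 6 fell, with a median log2 fold change of -1.45 against 0.02 for all genes. Myom2, an M-band protein, fell from 686 ± 39.1 to 177 ± 73.5 CPM (log2 fold change -1.95, SE 0.24, edgeR adjusted p 0.000228). Mybpc3, the cardiac myosin-binding protein C that regulates cross-bridges, fell from 948 ± 106 to 248 ± 125 CPM (-1.93, SE 0.29, edgeR adjusted p 0.000606).

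The thin filament and Z-disc list moved both ways, with 11 of 30 genes higher and 7 lower (median log2 fold change 0.30). Flnc, a Z-disc filamin, rose from 110 ± 31.3 to 897 ± 85.4 CPM (3.02, SE 0.21, edgeR adjusted p 1.04e-05). Ankrd1, a stretch-responsive repeat protein, rose from 583 ± 180 to 3870 ± 1013 CPM (2.73, SE 0.27, edgeR adjusted p 7.3e-05). Lmod3, a leiomodin that nucleates actin, fell (-2.62, SE 0.69, edgeR adjusted p 0.0118), as did Tcap, the titin cap at the Z-disc (-2.11, SE 0.33, edgeR adjusted p 0.000834).

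Most genes called in a list of other myosins moved upwards. In this list 9 of 16 genes rose and 1 fell, with a median log2 fold change of 0.78. Myh9, a nonmuscle heavy chain, rose from 32.5 ± 7.70 to 231 ± 22.2 CPM (2.84, SE 0.17, edgeR adjusted p 8.11e-06). The regulatory light chain gene Myl12b rose from 27.8 ± 2.82 to 74.2 ± 23.7 CPM (1.42, SE 0.28, edgeR adjusted p 0.00297). Myh14, another nonmuscle heavy chain, fell (-0.81, SE 0.15, edgeR adjusted p 0.00205).

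Among genes of myosin folding and turnover, 6 of 17 rose and 4 fell (median log2 fold change 0.30). Klhl41, a kelch adaptor, rose from 16.3 ± 3.77 to 77.8 ± 10.1 CPM (2.25, SE 0.19, edgeR adjusted p 3.31e-05), and Hsp90aa1, a chaperone that folds myosin, rose too (1.28, SE 0.20, edgeR adjusted p 0.000675). Fbxo32, the ubiquitin ligase atrogin-1, fell (-1.56, SE 0.34, edgeR adjusted p 0.00469), and Asb2, also a ubiquitin ligase subunit, fell (-1.04, SE 0.15, edgeR adjusted p 0.000483).

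Of genes named as regulators of myosin genes, 4 of 30 rose and 12 fell (median log2 fold change -0.25). Smarca4, the gene of Brg1, rose from 58.2 ± 1.46 to 85.8 ± 7.95 CPM (0.56, SE 0.11, edgeR adjusted p 0.00307). Nfatc2, a calcineurin-regulated factor, fell from 123 ± 8.99 to 15.2 ± 11.99 CPM (-3.03, SE 0.46, edgeR adjusted p 0.000683), and the class II deacetylase gene Hdac9 fell (-1.59, SE 0.27, edgeR adjusted p 0.00132).

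Chamber markers were mixed. Of 8 atrial markers tested, 1 rose and 2 fell, and of 5 ventricular markers 0 rose and 1 fell. Nppa, the atrial natriuretic peptide gene, rose from 31.9 ± 16.7 to 92.9 ± 63.5 CPM (1.56, SE 0.55, edgeR adjusted p 0.0419). Kcnj3, a potassium channel subunit, fell from 758 ± 91.7 to 162 ± 26.3 CPM (-2.23, SE 0.16, edgeR adjusted p 1.6e-05). Kcnip2, a ventricular potassium channel subunit, fell from 161 ± 6.26 to 14.2 ± 4.81 CPM (-3.51, SE 0.23, edgeR adjusted p 8.39e-06).

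Enpatoran against saline I/R called fewer genes, 2458 of 14060, and with 1 library left out between 35 and 6293. Of all genes tested 7.23% were called higher and 10.3% lower. With 1 library left out, the calls ranged from 0 to 6 genes in the thick filament and M-band list, 1 to 20 in the thin filament and Z-disc list, 0 to 7 of other myosins, 1 to 8 of folding and turnover and 0 to 15 of regulators. In the thick filament and M-band list 3 of 10 rose and 0 fell. Mybpc3 rose from 248 ± 125 to 527 ± 53.3 CPM (log2 fold change 1.08, SE 0.28, edgeR adjusted p 0.0309), and titin, Ttn, rose from 13259 ± 4586 to 24087 ± 605 CPM (0.86, SE 0.23, edgeR adjusted p 0.0321). Of 30 thin filament and Z-disc genes 4 rose and 7 fell, with Tnni3, cardiac troponin I, higher (0.81, SE 0.21, edgeR adjusted p 0.0314), Neb, nebulin, higher (0.68, SE 0.21, edgeR adjusted p 0.0491), Tpm1, a tropomyosin, lower (-1.63, SE 0.34, edgeR adjusted p 0.0176) and Flnc lower (-1.50, SE 0.19, edgeR adjusted p 0.00717).

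Of other myosins, 1 of 16 rose and 4 fell in Enpa-I/R. Myo1e, an unconventional class I myosin, rose (0.94, SE 0.28, edgeR adjusted p 0.0462), while Myl12b (-1.15, SE 0.28, edgeR adjusted p 0.0265) and Myl12a (-1.13, SE 0.29, edgeR adjusted p 0.0301) fell. For folding and turnover 2 of 17 rose and 2 fell. Trim55, a muscle RING finger protein, rose (0.91, SE 0.21, edgeR adjusted p 0.0217) and Asb2 rose (0.52, SE 0.15, edgeR adjusted p 0.0379). Klhl41 (-1.70, SE 0.19, edgeR adjusted p 0.0054) and Hsp90aa1 (-0.91, SE 0.19, edgeR adjusted p 0.0186) fell.

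Of myosin gene regulators 4 of 30 rose and 0 fell, which is 13.3% called against 17.5% of all genes. Sox6, a factor that represses slow myosin genes in skeletal muscle, rose from 588 ± 180 to 1145 ± 3.599 CPM (0.96, SE 0.20, edgeR adjusted p 0.0171), and Gata6, a cardiac zinc finger factor, rose (0.53, SE 0.16, edgeR adjusted p 0.0469). Kcnj3 (0.93, SE 0.16, edgeR adjusted p 0.0122) and Kcnip2 (1.71, SE 0.22, edgeR adjusted p 0.00717) rose. These directions share the NS-I/R libraries with the comparison above and are not independent of it. The Xirp2-led cluster held 18.7% of cardiomyocyte-like nuclei in Enpa-I/R and 52.8% in NS-I/R, and with it left out 408 genes were called in place of 2458, of which 3 were list genes.

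**Figure D5:**
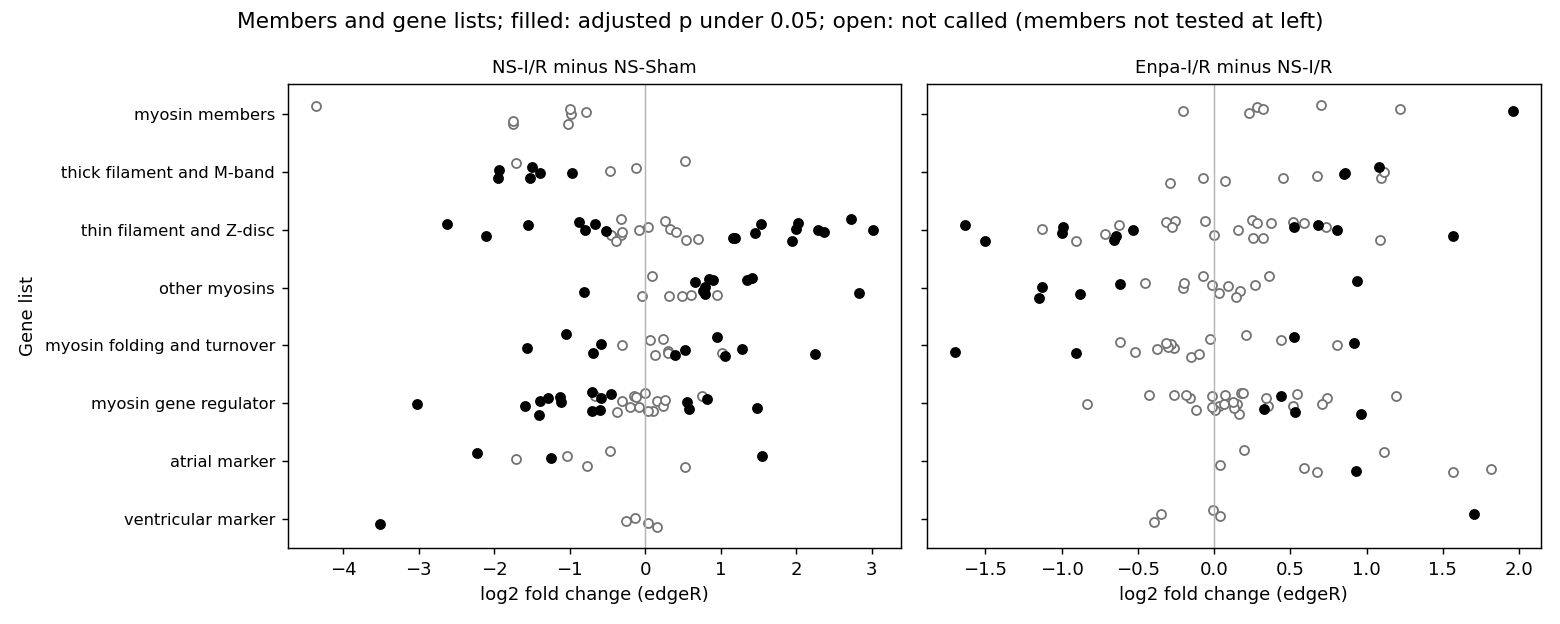
edgeR log2 fold change (horizontal axis) of the 7 myosin genes and of each gene list (rows) in summed cardiomyocyte-like nuclei, for NS-I/R minus NS-Sham at left and for the drug comparison (Enpa-I/R minus NS-I/R) at right. Filled points passed an adjusted p of 0.05; at left the 7 genes are drawn open because they were not tested. The thick filament and M-band genes called lie left of 0 at left (6 genes) and right of 0 at right (3 genes).

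Genes with the most similar pattern were picked for Myh6, Myh7, Myh7b and Mhrt by Pearson r of log2(CPM + 1) over 9 libraries among 7289 genes. The 3 closest to Myh6 were Pxdn (r 0.991), Vav2 (0.979) and As3mt (0.974), and those closest to Myh7 were Ccdc149 (0.977), Zfp523 (0.969) and Rhoq (0.966). Closest to Myh7b were Zbtb20 (0.993), Ggnbp1 (0.991) and Lrrcc1 (0.990), and among those closest to Mhrt were Naa40 (0.998) and Msh3 (0.991). The libraries share 3 groups, so much of each r is the difference between groups, and no p is given. Zbtb20, for example, averaged 5949 CPM over NS-Sham libraries, 1843 over NS-I/R and 3104 over Enpa-I/R.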

How the data were processed

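Nuclei were taken from flash-frozen, powdered hearts and libraries made with the 10x Genomics 3' v3.1 kit, per the labels' protocols. The deposited values are raw UMI counts per gene and barcode written by Cell Ranger 8.0.0, as per the file headers; the submitters' processing notes list Cell Ranger 6.1.1, Seurat, GRCh38 and GRCm39 without a role. Intron and strand settings are not given in the sources used here. Gene positions are from GENCODE on GRCm38, in which 32158 (99.6%) of the gene IDs occur, so counts made on another build may rest on slightly different gene models.

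Nuclei with at least 500 genes and at most 5% mitochondrial UMIs were kept (scanpy 1.11.5). Doublets were scored by Scrublet, and the top 0.8% per 1000 barcodes of a library, 133 to 538, were removed. Clustering used 2000 variable genes, without the 7 myosin genes and all gene lists, 30 principal components, 15 neighbours and Leiden at resolution 1. Clusters were named from fixed marker sets with at least 3 leading markers, and 1 stayed unnamed. UMIs of cardiomyocyte-like nuclei were summed per library and fitted in edgeR 4.0.16 (low counts filtered by filterByExpr, TMM scaling, quasi-likelihood F test) over 9 libraries, with Benjamini-Hochberg adjustment over 14060 genes and a threshold of 0.05. Each SE was taken as the size of the log2 fold change divided by the root of its F value. Shares were compared by exact permutation over libraries.

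The 7 genes and the lists were chosen with earlier results of these data known. Named list genes are up to 2 rises and 2 falls per list and comparison, called, without overlap and with a mean of at least 10 CPM; for likeness, symbols of unnamed gene models and mitochondrial genes were left out, and 1 gene is not reported here. The rank of genes by log2 fold change and the split by Myh6 were chosen after seeing the data. On simulated counts with a log2 fold change of 1 in 200 genes, edgeR called 35.5% of them for NS-I/R minus NS-Sham (13803 genes) and 31.0% for the drug comparison (13791 genes), with 5 and 2 unchanged genes called. Alternatives were DESeq2 1.42.0, its size factors, no low-count filter, 6 libraries, a replicate block, leaving out each library, mitochondrial UMIs up to 20%, at least 1000 genes, keeping doublets, Leiden at resolution 2, thinning to 2000 UMIs or none, all nuclei, and cluster 24 left out. Fits without or within cluster 3, within cluster 2, and levels less the endothelial-like level were added after seeing the data.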

Additional observations from a re-analysis of the deposited data

Results flagged for a closer look

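Myl7 stood out in a class outside the main comparison. In smooth muscle-like nuclei of Enpa-I/R it averaged 0.730 UMIs per nucleus, against at most 0.0408 in any NS-Sham library, where 245 such nuclei held 5 Myl7 UMIs. The signal was uneven, at 0.426, 1.76 and 0.00794 UMIs per nucleus in Enpa-I/R replicates 1 to 3, from 72, 123 and 1 UMIs in 365 nuclei together. It was looked at because it exceeded 3 times the highest sham library with at least 10 UMIs, and no test was made.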

How the results depend on the processing

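For NS-I/R minus NS-Sham, each of the 7 genes stayed lower under every alternative tried. Leaving out 1 library gave log2 fold changes from -1.05 to -0.94 for Myh6, -1.23 to -0.83 for Myh7, -4.92 to -3.99 for Myh7b and -1.80 to -1.69 for Mhrt. Mhrt was at -2.04 over all nuclei, and at -1.59 in UMIs per nucleus (not CPM) less the endothelial-like level. Without the Xirp2-led cluster Myh6 was at -0.13, Myh7 at -0.39 and Mhrt at -0.83, with 3771 genes and 33 list genes called in place of 6251 and 64. The drug comparison, Enpa-I/R minus NS-I/R, varied more. Its 2458 called genes were 231 with the 6 I/R libraries and 408 without the Xirp2-led cluster. They were 1624 and 1398 when NS-Sham replicate 1 or 3 was left out, 250, 297 and 6293 for NS-I/R replicate 1, 2 or 3, and 239, 414 and 35 for Enpa-I/R replicate 1, 2 or 3. List genes called ranged from 3 to 59 with a library left out, were 8 with 6 libraries, 18 with a mitochondrial limit of 20% and 3 without the Xirp2-led cluster. The log2 fold change of Myh7b was 1.96 with 6 libraries (edgeR adjusted p 0.0561), 1.41 without the Xirp2-led cluster (0.0521), 1.33 within cluster 2 (0.130) and 0.53 within cluster 3 (0.364), and 1.58 to 2.51 with a library left out. Over all its alternatives the adjusted p of Myh7b ran from 2e-05 to 0.364. Myl2 passed 0.05 without the low-count filter (0.71), with DESeq2 (0.70) and over all nuclei (0.64), and ranged from 0.52 to 1.03 with a library left out. Mhrt passed over all nuclei (0.47, edgeR adjusted p 0.0196) and changed sign without the Xirp2-led cluster (-0.31), within cluster 2 (-0.40) and within cluster 3 (-0.53). Myh7 changed sign without the Xirp2-led cluster (-0.24) and within cluster 2 (-0.30), Myl3 likewise (-0.11 and -0.19), and Myl7 within cluster 3 (-0.19) and without Enpa-I/R replicate 1, with a range of -0.83 to 1.68 over libraries left out. The cause of these changes was not tested.

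With the replicate number as a block, 5842 genes were called in NS-I/R minus NS-Sham and 1856 in the drug comparison, where Myh7b had a log2 fold change of 2.04 (edgeR adjusted p 0.0183); the block changed no other call of the 7 genes. Same-numbered libraries correlated at 0.07 to 0.10 and -0.14 to 0.00 in the 2 comparisons, so the numbers were not taken as pairs. Of 336 counts of genes called higher or called in a single list, over all alternatives, 84 moved by over 1.5 times. Myl7, at 2.15 to 29.2 CPM, is the gene most limited by depth.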
